A study of Mus musculus with 9 samples.

Results

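The genes described here are 8 genes of the inflammasome and of pyroptosis, chosen by symbol (Nlrp3, Nlrp12, Nlrc4, Aim2, Pycard, Casp1, Casp4 and Gsdmd) from a table of 46517 mouse genes. Each symbol was listed 1 time in the table, so all 8 were found. Their levels were compared between neutrophils sorted from the bone marrow, the blood and the pancreatic tumors of C57BL/6 mice on day 27 after orthotopic transplantation (OT) of pancreatic tumor cells. All 3 compartments therefore came from tumor-bearing mice, and no library of a tumor-free mouse was analysed here. The tumor cells were a luciferase-expressing line derived from KPC mice, a genetic model of pancreatic cancer that uses PDX-cre. The study's methods give 1 gate for every compartment, live CD45+ cells negative for CD3, B220 and NK1.1 and positive for Ly6G and Ly6C. The labels call the bone marrow cells Ly6G.hi and the blood and tumor cells Ly6G+. There were 3 libraries per compartment, each from a pool of mice, and the study describes 3 independent experiments. The ages of these mice are not given in the sources used here.

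Inflammasomes are protein platforms that assemble when a sensor protein meets a microbial product or a sign of cell damage. Sensors such as NLRP3, NLRC4 and AIM2 recruit pro-caspase-1, in most cases through the adaptor ASC, which Pycard encodes. Active caspase-1 matures interleukin-1 beta and interleukin-18 and cuts gasdermin D, whose freed end forms pores in the plasma membrane, a lytic form of cell death called pyroptosis. Caspase-4, known in mice as caspase-11, binds lipopolysaccharide in the cytosol and also cuts gasdermin D. Neutrophils can release interleukin-1 beta through these platforms, and gasdermin D has been studied in them for the release of extracellular traps.

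The levels are log2 FPKM values (fragments per kilobase of gene and per 1000000 fragments, on a log2 scale), from which whole reads were recovered for every gene listed. Per library, 4580807 to 6830374 reads were recovered in blood, 5446499 to 6969557 in tumor and 7108871 to 7949367 in bone marrow. The library scaling in the deposited values placed tumor lower than plain read totals would, by 0.449 against blood and 0.452 against bone marrow on the log2 scale (the shift in the median of all genes tested), and moved blood against bone marrow by 0.003. Calls that rest on this choice are named beside the gene. Neutrophil markers (8 genes, S100a8, S100a9 and Csf3r among them) were read in every compartment, at 10400 to 12000 reads per 1000000 recovered reads (RPM) in tumor, 32500 to 33100 in blood and 41900 to 43500 in bone marrow. Markers of other cells moved with the compartments too. The 8 epithelial markers summed to 2730 to 5840 RPM in tumor, 21.4 to 141 in blood and 8.02 to 10.9 in bone marrow, where Cldn4 had 0 reads. Blood replicate 2 held most of the epithelial reads in blood, with 406 reads of Krt8 against 3 and 5 in the other two. The 7 markers of immature neutrophils reached 953 to 1350 RPM in blood, 4140 to 8570 in tumor and 64700 to 69700 in bone marrow. The 10 macrophage and monocyte markers summed to 1310 to 1510 RPM in blood, 508 to 641 in tumor and 472 to 515 in bone marrow. Csf1r, with 4796 to 6885 reads per blood library, gave most of the blood sum, and Apoe was also highest there. Other markers of this list differed from the sum. Ccr2 was lowest in tumor, at 38 to 56 reads. The complement genes C1qa, C1qb and C1qc had 0 to 87 reads per library. Tumor libraries held more reads than blood libraries of C1qa (30 to 33 against 3 to 12) and C1qb (60 to 87 against 19 to 29). The 7 markers of T, B and NK cells and the 5 of dendritic cells stayed at or under 112 RPM, with Ncr1, Klrb1c and Siglech at 0 reads in tumor. The part of these other cells and of cell maturity in the results that follow was not tested. In bulk libraries, fewer cells of a type and less RNA per cell cannot be told apart.

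The 8 genes did not move as a block. Nlrp3 and Aim2 rose from bone marrow to blood and again to tumor, whereas Nlrp12, Casp1, Casp4 and Gsdmd peaked in blood and were lower in tumor. The calls of Aim2 from blood to tumor, and of Casp1 and Gsdmd from bone marrow to blood, depended on settings and single libraries. Pycard was highest in bone marrow, and Nlrc4 was close to the limit of detection throughout. Of the 8 genes, 6 passed the filter on low values (log2 FPKM over 0 in at least 3 libraries), and limma called a difference at a Benjamini-Hochberg adjusted p under 0.05 over all 7794 genes tested. In tumor against blood, 1 of the 6 was higher and 4 were lower, where 28.1% of all genes tested were higher and 34.5% were lower. In tumor against bone marrow it was again 1 higher and 4 lower, with 22.4% of all genes tested higher and 32.9% lower. In blood against bone marrow, 5 were higher and 1 was lower, with 20.6% and 23.6% of all genes tested. In the same order of comparisons, the median log2 difference of the 6 was -1.23, -0.76 and 1.15, beside -0.17, -0.21 and -0.04 over all genes tested. Without blood replicate 2, which held most of the epithelial reads in blood, 5, 5 and 4 of the 6 genes were called in these 3 comparisons. The count in blood against bone marrow was 4 also without any 1 of blood replicates 1 and 3 or bone marrow replicates 1 and 3.

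**Figure D1:**
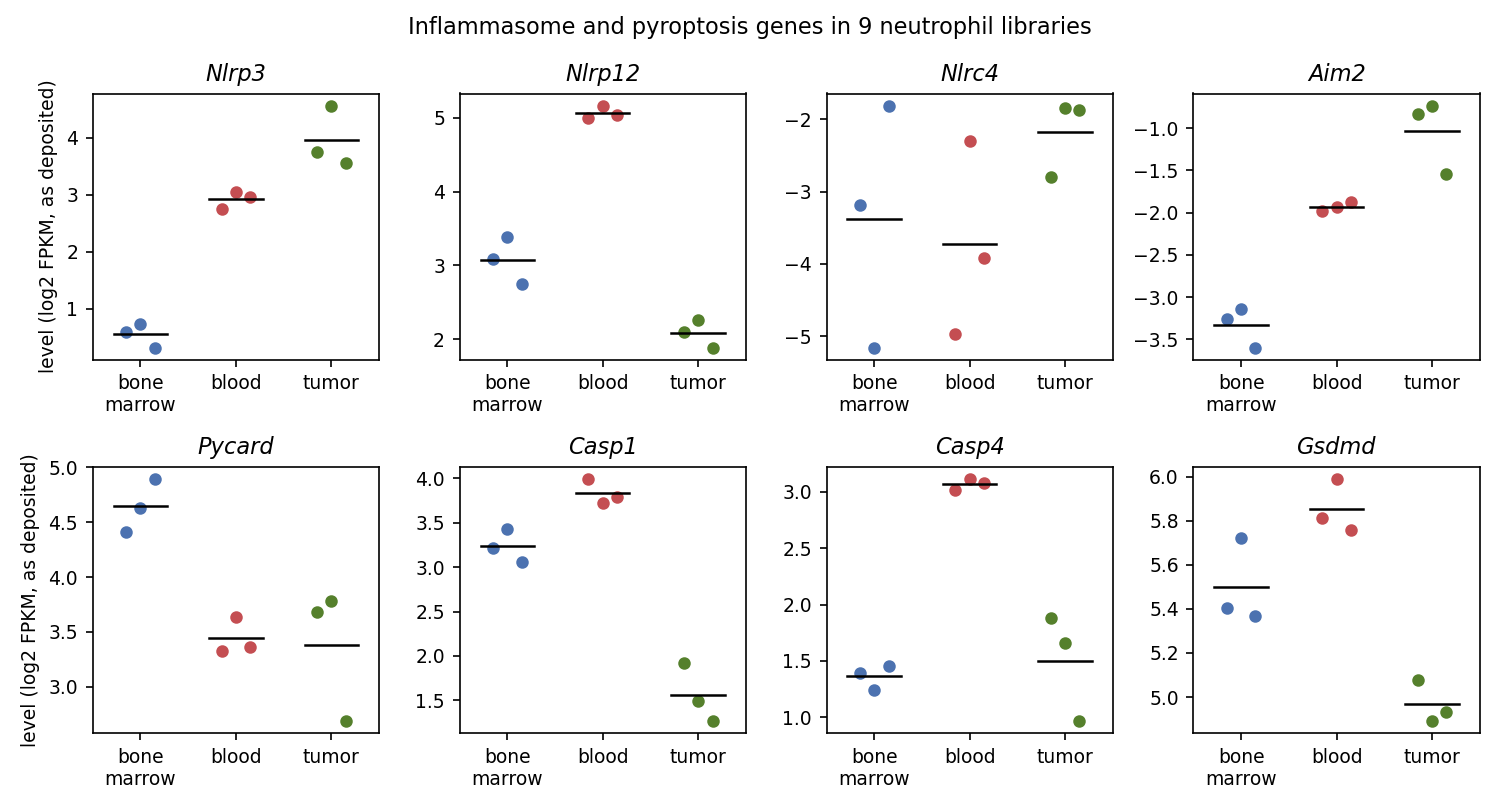
Level of each of the 8 genes in each library (vertical axes in log2 FPKM as deposited, with a scale of their own per gene), with 1 point per library and a line at the mean of the 3 libraries of a compartment. Nlrp3 and Aim2 climbed from bone marrow over blood to tumor, Nlrp12, Casp1, Casp4 and Gsdmd were highest in blood, and the Nlrc4 points overlapped.

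Nlrp3 (ENSMUSG00000032691.13, chr11:59541568-59566956, plus strand, GRCm38) encodes the sensor that responds to potassium efflux and membrane damage and whose own transcription is a known priming step. Its levels were 0.59, 0.73 and 0.32 log2 FPKM in bone marrow, 2.74, 3.04 and 2.96 in blood, and 3.75, 4.56 and 3.56 in tumor. No library of one compartment reached into another. Nlrp3 rose by 2.37 ± 0.26 (SE) on the log2 scale from bone marrow to blood (adjusted p = 0.000287, limma) and by a further 1.04 ± 0.26 from blood to tumor (adjusted p = 0.00798), so that tumor stood 10.6-fold above bone marrow (adjusted p = 2.26e-05). These values rested on 2125 to 4530 reads per tumor library, 670 to 1170 per blood library and 210 to 256 per bone marrow library. On plain read totals the step from blood to tumor was larger, at 1.49.

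Nlrp12 (ENSMUSG00000078817.4, chr7:3218784-3249740, minus strand) encodes a related NLR protein of myeloid cells, known as a brake on NF-kB signalling and also as an inflammasome sensor. It had 3.08, 3.39 and 2.75 log2 FPKM in bone marrow, 4.996, 5.17 and 5.04 in blood, and 2.10, 2.26 and 1.88 in tumor. All blood libraries were above all bone marrow libraries, and these in turn were above all tumor libraries. The gene rose by 1.99 ± 0.17 (SE) from bone marrow to blood (adjusted p = 9.79e-05, limma) and fell by 2.99 ± 0.17 from blood to tumor (adjusted p = 6.27e-06), which left a difference of -0.99 ± 0.17 between tumor and bone marrow on the log2 scale (adjusted p = 0.00163). With plain read totals this last difference was -0.54 (adjusted p = 0.00811). Blood libraries gave 3904 to 6212 reads of Nlrp12 and tumor libraries 821 to 1124. Several microRNA genes lie within the gene, and those listed in the table had 0 reads.

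Aim2 (ENSMUSG00000037860.14, chr1:173350879-173466040, plus strand) encodes the sensor of double-stranded DNA in the cytosol. It was below the filter on low values, because the length behind its FPKM was the genomic span of 115162 bases against 2839 bases of its principal transcript, so it was tested with the filter the study states, at least 5 reads in any library. This filter left 17714 genes, of which 52.6% were called in either direction between tumor and blood, 43.7% between tumor and bone marrow and 28.9% between blood and bone marrow. There were 80, 74 and 63 reads of Aim2 in bone marrow, 115, 168 and 147 in blood, and 402, 524 and 313 in tumor. In log2 FPKM these were -3.26, -3.13 and -3.60, then -1.98, -1.94 and -1.88, then -0.83, -0.73 and -1.55, again with no overlap between compartments. Aim2 rose by 1.40 ± 0.32 (SE) from bone marrow to blood (adjusted p = 0.0115, limma with the reads filter). Tumor exceeded blood by 0.90 ± 0.32 (adjusted p = 0.0416) and bone marrow by 2.29 ± 0.32 (adjusted p = 0.000553). The step from blood to tumor was close to the threshold. It was no longer called without any 1 of bone marrow replicates 1 and 2, blood replicates 1, 2 and 3, or tumor replicates 1 and 2 (adjusted p from 0.0511 to 0.0916). Median centring (adjusted p = 0.0514, limma), a fit of blood and tumor alone (0.0514) and a replicate block (0.0564) also ended the call. After quantile normalization the difference was 0.13 (adjusted p = 0.796), and 11 of 19 alternatives lost the call. Over its alternatives the adjusted p ranged from 0.00475 to 0.796. The step from bone marrow to blood passed in all but 1 of its alternatives, with 1 added to each FPKM value, where it was 0.20 (adjusted p = 0.0642).

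Nlrc4 (ENSMUSG00000039193.7, chr17:74425438-74459142, minus strand) encodes the sensor that works with NAIP proteins on bacterial flagellin and secretion needles. It had 24, 5 and 62 reads in bone marrow, 4, 37 and 10 in blood, and 29, 69 and 71 in tumor, the lowest counts of the 8 genes. The compartments overlapped. With the reads filter, tumor differed from blood by 1.56 ± 0.94 (SE, log2 scale) with an adjusted p of 0.196, tumor from bone marrow by 1.21 ± 0.94 (0.327) and blood from bone marrow by -0.35 ± 0.94 (0.857, all limma). With SEs of 0.94, none of these differences passed the threshold, and real differences of this size could have been missed. The last of them changed sign without bone marrow replicate 3 (0.44) or without blood replicate 1 (0.27).

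Since Nlrp3 and Aim2 both rose along the same path, the 250 bases before a start site of each are shown, from RefSeq on GRCm38.p6, in the direction of transcription. Promoter windows (250 bases before to 50 after the start site) were matched for 7 of the 8 genes at 9 start sites. Capitals mark exact matches to GAGGAAG or its reverse CTTCCTC, a short form of the site of PU.1, a myeloid transcription factor, and to GGGACTTTC, a form of the NF-kB site. The Nlrp3 stretch is chr11:59542436-59542685 and lies before the second of its 2 start sites, and the Aim2 stretch is chr1:173420354-173420603, both on the plus strand.
Nlrp3: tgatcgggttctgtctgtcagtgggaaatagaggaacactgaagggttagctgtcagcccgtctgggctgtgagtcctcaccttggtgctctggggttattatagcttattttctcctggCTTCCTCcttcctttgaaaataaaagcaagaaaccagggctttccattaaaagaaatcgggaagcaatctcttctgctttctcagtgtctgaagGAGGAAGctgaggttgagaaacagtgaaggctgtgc
Aim2: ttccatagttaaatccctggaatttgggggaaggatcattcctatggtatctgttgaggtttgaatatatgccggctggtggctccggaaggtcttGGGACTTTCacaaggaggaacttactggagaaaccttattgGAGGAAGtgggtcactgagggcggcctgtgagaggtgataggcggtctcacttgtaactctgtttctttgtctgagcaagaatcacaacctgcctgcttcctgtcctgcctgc
The Nlrp3 window held the PU.1 form 2 times, 1 time on each strand, and the window of its other start site held none. The Aim2 window held 1 PU.1 form and 1 NF-kB form. Pycard held the PU.1 form 1 time, on the reverse strand. No match to GAGGAAG or GGGACTTTC was found for Nlrp12, Nlrc4, Casp1 or Casp4. Among 32851 promoter windows of the table, 13.6% held the PU.1 form and 0.353% the NF-kB form on either strand. TGANTCA, an AP-1 form (7.81% of windows), and GAAANNGAA, an interferon response element form (8.56%), matched none of the 9 windows. The forms share no base in these windows. A match describes letters in the window and is no evidence of binding.

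Pycard (ENSMUSG00000030793.3, chr7:127989708-127993867, minus strand in the annotation at hand, GENCODE M21) encodes the adaptor ASC. Its levels were 4.41, 4.63 and 4.89 log2 FPKM in bone marrow, 3.33, 3.63 and 3.36 in blood, and 3.68, 3.78 and 2.69 in tumor, from 70 to 348 reads per library. The bone marrow libraries were above all others, and blood and tumor overlapped. Pycard fell by 1.203 ± 0.28 (SE, log2 scale) from bone marrow to blood (adjusted p = 0.0108, limma) and by 1.26 ± 0.28 from bone marrow to tumor (adjusted p = 0.00636). With no filter on low values the fall in blood had an adjusted p of 0.0806, and over its alternatives the adjusted p ranged from 0.000837 to 0.0806. Tumor against blood gave -0.06 ± 0.28 (adjusted p = 0.871). This value had no stable sign, at 0.39 with plain read totals, 0.21 after quantile normalization, 0.03 without blood replicate 2 and 0.29 without tumor replicate 3. Pycard thus moved opposite to Nlrp3 and Aim2 between bone marrow and blood. The annotation also places the transcript Gm45205 across an exon of Pycard on the other strand, and without strand information the reads of both cannot be told apart.

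Casp1 (ENSMUSG00000025888.5, chr9:5298517-5307265) and Casp4 (ENSMUSG00000033538.12, chr9:5308828-5336783) are neighbours on the plus strand. Casp1, the protease of the canonical inflammasome, had 3.21, 3.43 and 3.06 log2 FPKM in bone marrow, 3.99, 3.72 and 3.79 in blood, and 1.93, 1.49 and 1.27 in tumor. It fell by 2.27 ± 0.18 (SE, log2 scale) from blood to tumor (adjusted p = 2.71e-05, limma) and differed from bone marrow by -1.67 ± 0.18 there (adjusted p = 0.000155). Tumor libraries held 167 to 206 reads of Casp1, against 549 to 642 in blood. Blood exceeded bone marrow by 0.60 ± 0.18 (adjusted p = 0.0305), with no overlap between the libraries. That smaller step was not called without any 1 of bone marrow replicates 1 and 3 or blood replicates 1, 2 and 3 (adjusted p from 0.0517 to 0.101), nor after quantile normalization (0.0759) or with no filter (0.156). Over its alternatives the adjusted p ranged from 0.00993 to 0.156.

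Casp4, the protease of the noncanonical pathway, had 1.39, 1.25 and 1.46 log2 FPKM in bone marrow, 3.01, 3.11 and 3.08 in blood, and 1.88, 1.66 and 0.97 in tumor. Blood libraries stood apart from both other compartments, which overlapped. Casp4 rose by 1.70 ± 0.22 (SE, log2 scale) from bone marrow to blood (adjusted p = 0.000648, limma) and fell by 1.56 ± 0.22 from blood to tumor (adjusted p = 0.000455). In tumor against bone marrow the difference was 0.14 ± 0.22 (adjusted p = 0.622). It depended on single libraries and on the scaling, at 0.59 with plain read totals (adjusted p = 0.0391), 0.41 without tumor replicate 3 (0.024) and -0.05 without tumor replicate 1 (0.863). Over its alternatives the adjusted p ranged from 0.024 to 1.

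Gsdmd (ENSMUSG00000022575.4, chr15:75862327-75867408, plus strand), which encodes the pore former, varied least among the 6 genes tested. Its levels were 5.403, 5.72 and 5.37 log2 FPKM in bone marrow, 5.81, 5.99 and 5.76 in blood, and 5.08, 4.89 and 4.93 in tumor. The 3 compartments did not overlap. Gsdmd fell by 0.89 ± 0.12 (SE, log2 scale) from blood to tumor (adjusted p = 0.000347, limma), a 1.85-fold difference. It was lower in tumor than in bone marrow by a log2 difference of -0.53 ± 0.12 (adjusted p = 0.00592), a call that was lost with plain read totals (-0.08, adjusted p = 0.55) and after quantile normalization (-0.19, adjusted p = 0.137). Over its alternatives the adjusted p ranged from 0.00423 to 0.55. Blood exceeded bone marrow by 0.36 ± 0.12 (adjusted p = 0.0409). That call was lost in 11 of 21 alternatives, among them leaving out any 1 of bone marrow replicates 1 and 3, blood replicates 1, 2 and 3 or tumor replicate 3, and its adjusted p ranged from 0.0136 to 0.221.

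**Figure D2:**
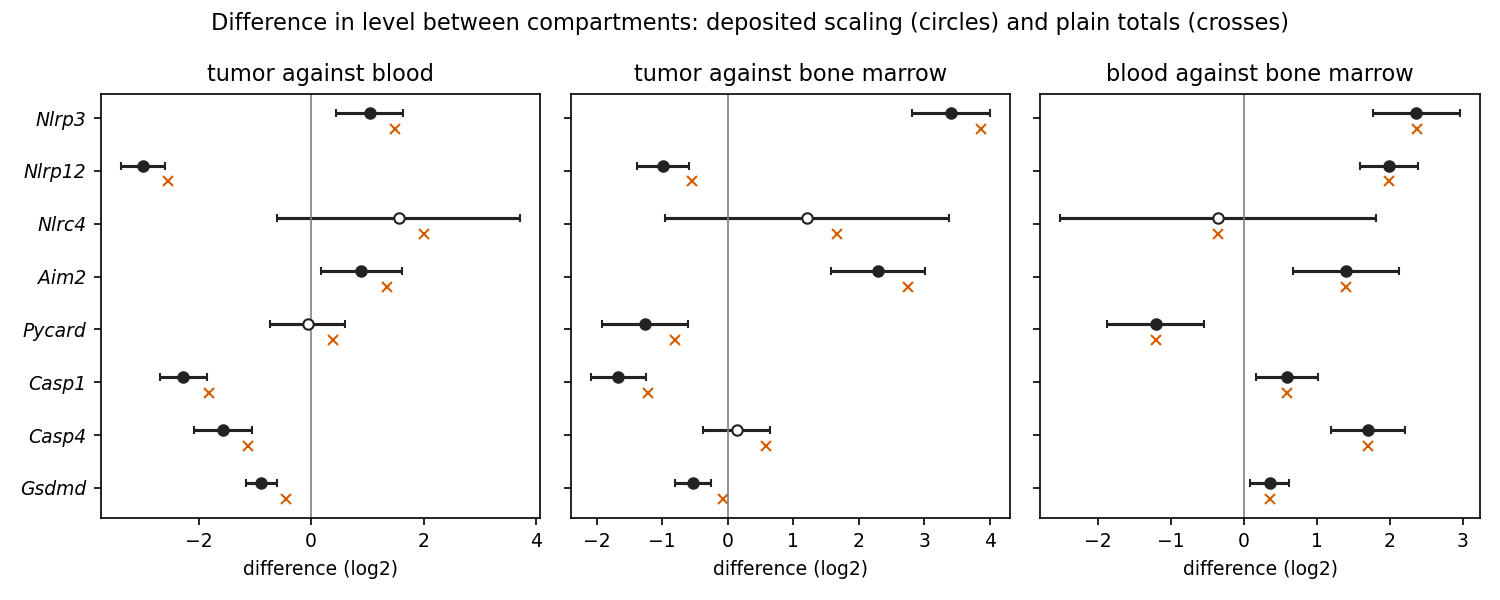
Difference in level between compartments for each gene (horizontal axes, log2 scale). Circles with bars show the fitted difference and its 95% confidence interval on the deposited scaling, filled where the adjusted p was under 0.05, and crosses show the same difference on plain read totals. Crosses lie to the right of the circles in both tumor comparisons and on them in blood against bone marrow. The Gsdmd cross in tumor against bone marrow is at -0.08.

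Differences between 2 genes within a library do not depend on how the library was scaled. Their level and sign do depend on the gene lengths behind the FPKM values, whereas their shifts between compartments do not. Per kilobase of transcript, Casp4 was above Casp1 in blood (163 against 83.4 FPKM) and in tumor (57.1 against 17.6). Nlrp3 was likewise above Pycard in blood (47.8 against 10.9). In Nlrp3 minus Nlrp12, the log2 FPKM values were -2.49, -2.66 and -2.43 in bone marrow, -2.26, -2.12 and -2.08 in blood, and 1.66, 2.30 and 1.68 in tumor. The balance of these sensors thus shifted by 4.03 on the log2 scale, or 16.3-fold, from blood to tumor, and by 4.40 from bone marrow to tumor. Casp4 minus Casp1 was -0.76 ± 0.19 (SD, n = 3) in blood, -0.06 ± 0.23 in tumor and -1.87 ± 0.29 in bone marrow. Relative to Casp1, Casp4 in tumor was therefore 3.51-fold above bone marrow and 1.63-fold above blood, although both genes were lower in tumor than in blood. Gsdmd minus Pycard was 2.41 ± 0.06 in blood, 1.59 ± 0.59 in tumor and 0.85 ± 0.33 in bone marrow. Without tumor replicate 3, its shift from bone marrow to tumor was 0.40 in place of 0.73. Nlrp3 minus Pycard was -0.53 ± 0.11 in blood, 0.58 ± 0.44 in tumor and -4.10 ± 0.42 in bone marrow, a shift of 25.5-fold from bone marrow to tumor. The compartments did not overlap in any of the 12 comparisons of these 4 differences. How often other gene pairs lack overlap was not determined, so this describes these pairs only. Each of the 12 comparisons gave p = 0.1 in an exact two-sided permutation test of 3 against 3 libraries. That is the smallest p this design allows, and it was 0.1 after Benjamini-Hochberg adjustment over the 12.

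**Figure D3:**
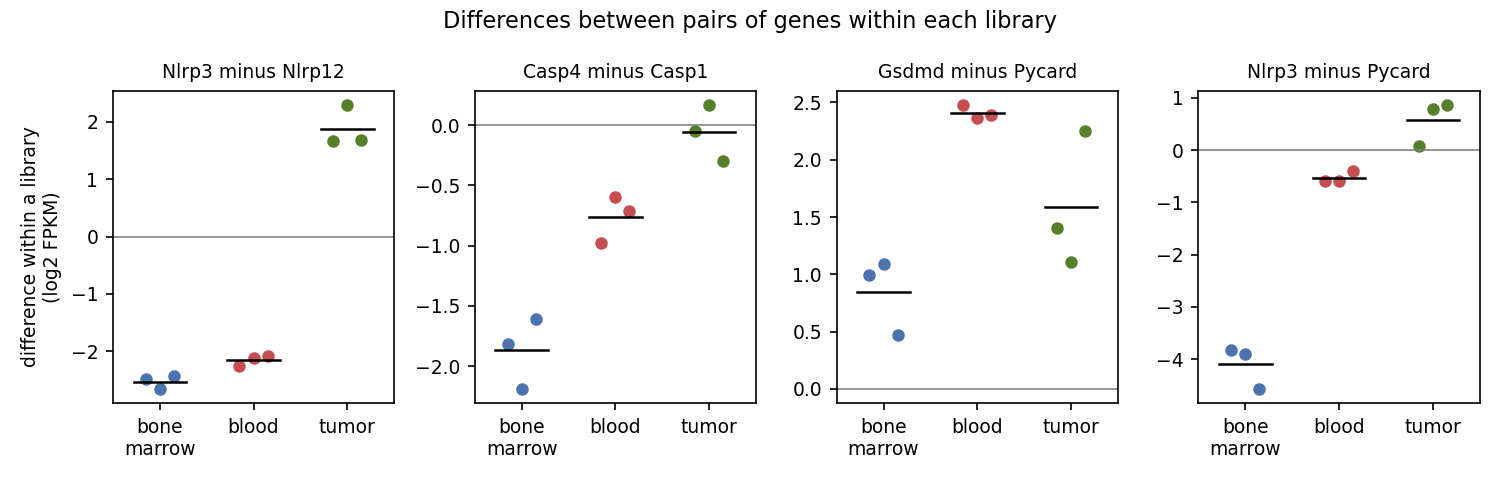
Difference between the levels of 2 genes in the same library, with 1 point per library and a line at the mean of each compartment. Vertical axes give log2 FPKM as deposited, the first gene minus the second, so their sign depends on the gene lengths used. Nlrp3 minus Nlrp12 was below 0 in every bone marrow and blood library and at 1.66 or higher in every tumor library.

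To compare levels between genes, the deposited FPKM values were set to the length of the principal transcript, because the length behind them was 2.83 to 40.6 times longer for 7 of the genes. For Pycard it was shorter (1765 bases against 3800) and was kept. Per kilobase of transcript, Gsdmd was first in bone marrow, at 128 ± 17.9 FPKM (SD, n = 3), followed by Casp1 (55.3 ± 7.21) and Casp4 (50.3 ± 3.70), whose libraries overlapped. In blood, Gsdmd (164 ± 14), Casp4 (163 ± 5.58) and Nlrp12 (150 ± 9.37) overlapped at the top, above Casp1 (83.4 ± 8.36) and Nlrp3 (47.8 ± 5.10). In tumor, Nlrp3 (103 ± 40.3) and Gsdmd (88.6 ± 6.08) overlapped at the top, above Casp4 (57.1 ± 17.2), while Aim2 (20.4 ± 5.68), Nlrp12 (19.0 ± 2.49) and Casp1 (17.6 ± 4.18) overlapped in the middle. Nlrp3 thus went from rank 6 of 8 in bone marrow to rank 5 in blood and rank 1 in tumor by the mean. The first place in tumor rests on tumor replicate 2 (149 FPKM against 83.85 for Gsdmd), and Gsdmd was above Nlrp3 in tumor replicates 1 (95.4 against 85.2) and 3 (86.4 against 74.5). Nlrc4 was last everywhere, at 0.981, 0.696 and 1.61 FPKM. On the lengths behind the deposited values, Nlrp3 was at rank 2 in tumor, and 15 of the 24 ranks differed between the 2 ways of counting length.

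**Figure D4:**
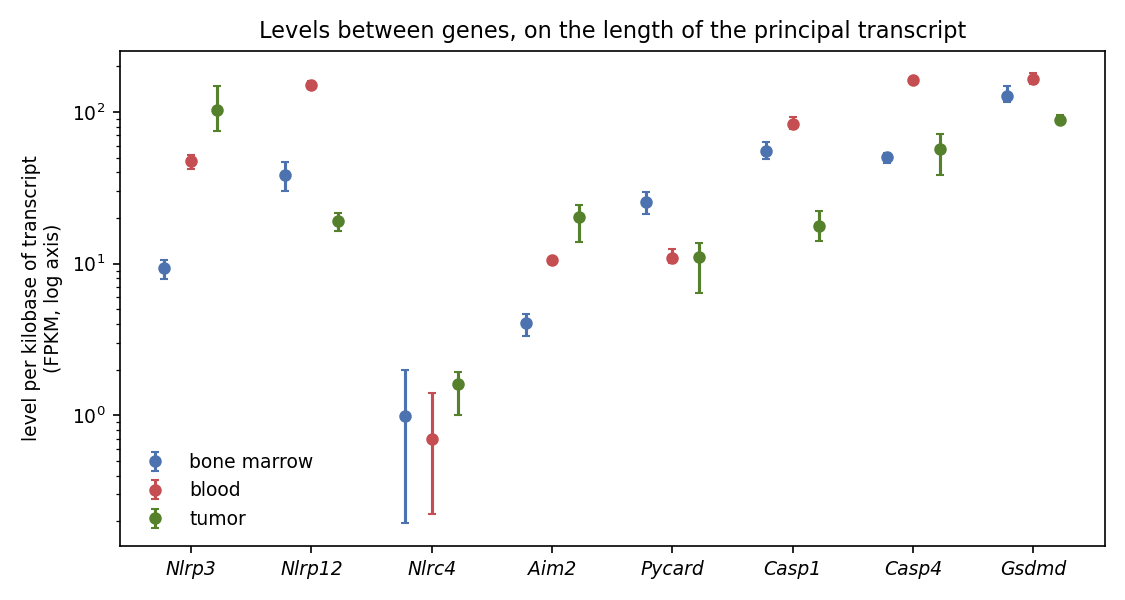
Mean level of each gene per kilobase of its principal transcript (vertical axis, FPKM on a log axis; Pycard on the length behind the deposited values), with bars from the lowest to the highest of the 3 libraries. Blood lies highest for Nlrp12, Casp1, Casp4 and Gsdmd, and tumor for Nlrp3 and Aim2.

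Around these 8 genes, 4 lists with 50 other genes of the pathway were read. Those named below passed the threshold in at least 2 of the 3 comparisons or make up a small count. Of the 27 that passed the filter on low values, 6 (Nod2, Naip5, Dpp8, Casp8, Fadd and Il1a) had fewer than 3 libraries over a log2 FPKM of 0 outside their highest compartment. They entered only through the compartment where they were high, which favours a difference, so the counts and medians of the lists are a description. Of 18 other sensors, 8 passed the filter. In tumor against blood 0 of these were higher and 6 were lower, in tumor against bone marrow 3 were higher and 4 lower, and in blood against bone marrow 5 were higher and 1 lower, read against the shares of all genes given above. Their median log2 differences were -1.19, -0.68 and 1.10. Mefv, which encodes pyrin, rose by 2.49 ± 0.14 (SE) from bone marrow to blood (adjusted p = 1.93e-05, limma) and fell by 1.32 ± 0.14 in tumor (adjusted p = 9.02e-05). Nod1, a sensor of bacterial cell wall, likewise rose by 1.03 in blood and fell by 2.20 in tumor. Nod2, another cell wall sensor, exceeded a log2 FPKM of 0 only in blood, with log2 differences of 1.18 and -1.37. It had 163 reads or more in every library, and with the reads filter its adjusted p was 0.0065 and 0.00143. Zbp1, a sensor of Z-form nucleic acid, rose by 1.78 and fell by 1.06. Nlrx1, a mitochondrial NLR protein, fell by 1.94 from blood to tumor and by 1.81 from bone marrow to tumor. Ifi204, of the AIM2-like family, was higher than in bone marrow in both blood (1.35) and tumor (1.09). Naip2 and Naip5 encode partners of NLRC4. Naip2 was lower in tumor than in blood (-1.001) and bone marrow (-1.31). Naip5 exceeded a log2 FPKM of 0 only in bone marrow. Its differences of -0.99 for blood and -1.53 for tumor are therefore a description with no p. The call for blood was also lost without any 1 bone marrow library or blood replicate 2. The Naip genes are related copies, and so are those of the AIM2-like family. How well reads were split between such copies was not tested.

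Of 13 genes that license or regulate inflammasomes, 8 passed the filter. In tumor against blood 2 were higher and 3 lower, in tumor against bone marrow 3 and 3, and in blood against bone marrow 4 and 2. Of all genes tested, 28.1% and 34.5%, 22.4% and 32.9%, and 20.6% and 23.6% were higher and lower in that order. The median log2 differences of this list were -0.32, -0.31 and 1.03, beside -0.17, -0.21 and -0.04 over all genes tested. The guanylate-binding protein genes Gbp2 and Gbp3 and the related GTPase gene Gm12250 (Irgb10), whose products open pathogen membranes and expose ligands for AIM2 and caspase-11, were all higher in blood than in bone marrow. The log2 differences were 3.10 ± 0.18 (SE) for Gbp2, 2.03 ± 0.27 for Gbp3 and 3.48 ± 0.17 for Gm12250 (adjusted p = 1.98e-05, 0.000756 and 1.4e-05, limma), and in tumor against bone marrow they were 2.95, 2.80 and 2.96. From blood to tumor, Gbp3 rose by 0.77 (adjusted p = 0.0366), Gm12250 fell by 0.52 (adjusted p = 0.0294, lost with plain read totals at -0.07), and Gbp2 differed by -0.15 (adjusted p = 0.473). The call of Gbp3 between blood and tumor ended without any 1 of bone marrow replicate 3, blood replicates 1, 2 and 3 and tumor replicates 1 and 3 (adjusted p of up to 0.111), and that of Gm12250 without any 1 of blood replicates 1 and 2 and tumor replicates 2 and 3 (up to 0.0978). Txnip, whose product binds NLRP3, rose by 1.77 in blood and fell by 1.97 in tumor. Pstpip1, a partner of pyrin, was lower in tumor than in blood (-1.57) and bone marrow (-1.28). Serpinb1a, which encodes an inhibitor of neutrophil proteases and of caspase-1 activation, fell by 4.38 ± 0.22 from bone marrow to blood (adjusted p = 1.4e-05, limma). It was 1.48 higher in tumor than in blood. The sum of the immature neutrophil markers above had the same order, but not every marker did, as Prtn3 overlapped between blood and tumor. The part of cell maturity in this was not tested. Of the proteases that hold NLRP1 in check, Dpp8 was lower in tumor than in bone marrow (-1.35) and Dpp9 lower in blood than in bone marrow (-0.94). Dpp8 entered the filter only through bone marrow, so its difference is a description with no p.

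Of 13 genes of other death caspases, gasdermins, membrane rupture and necroptosis, 6 passed the filter, with 3 higher and 1 lower in tumor against blood, 2 and 1 in tumor against bone marrow, and 1 and 2 in blood against bone marrow. The shares of all genes tested were 28.1% and 34.5%, 22.4% and 32.9%, and 20.6% and 23.6%. Ninj1, which encodes the protein that ruptures the plasma membrane after gasdermin pores form, rose by 1.90 ± 0.20 (SE) from bone marrow to blood (adjusted p = 0.000236, limma) and tumor stood 2.19 ± 0.20 above bone marrow (adjusted p = 5.7e-05). Its difference between tumor and blood was 0.30 (adjusted p = 0.225) on the deposited scaling and 0.74 (adjusted p = 0.00437) on plain read totals. Casp8, the initiator of death receptor signalling, was higher in tumor than in blood (1.17) and bone marrow (1.05), whereas Dfna5, the gene of gasdermin E, was lower by -2.03 and -2.28. Casp8 entered the filter only through tumor, so its differences are a description with no p. Ripk3, the kinase of necroptosis, was 1.03 higher in tumor than in blood and fell by 0.91 from bone marrow to blood. Fadd, the adaptor of caspase-8, fell by 1.90 from bone marrow to blood. It was 1.17 higher in tumor than in blood and had 5 to 11 reads per blood library. Because Fadd entered the filter only through bone marrow, these differences are a description with no p. Its call between tumor and blood was also lost in 12 of the 20 alternatives it entered. Among them was leaving out any 1 of bone marrow replicate 2, blood replicates 1, 2 and 3 and tumor replicates 1 and 3. Gsdma, Gsdma3 and Gsdmc had 0 reads in all 9 libraries.

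Of 6 genes of the cytokines that inflammasomes mature or release and of their antagonists, 5 passed the filter. In tumor against blood 3 were higher and 0 lower, in tumor against bone marrow 4 and 0, and in blood against bone marrow 3 and 0. Over all genes tested the shares were 28.1% and 34.5%, 22.4% and 32.9%, and 20.6% and 23.6%. Il1b, the main substrate of caspase-1, had 46868 to 75629 reads per tumor library, 13512 to 17247 per blood library and 1667 to 2851 per bone marrow library. It rose by 3.31 ± 0.26 (SE, log2 scale) from bone marrow to blood (adjusted p = 6.86e-05, limma) and by 1.21 ± 0.26 from blood to tumor (adjusted p = 0.00398). Il1a, a cytokine of the same receptor, had 2 to 6 reads per library in bone marrow and blood and 2367 to 4829 in tumor. The fitted log2 difference of 8.93 ± 0.47 between tumor and blood depends on the constant added to such low counts. Since Il1a passed the filter through the tumor libraries alone, this is a description with no p. Il1rn, which encodes the receptor antagonist, rose by 0.88 in blood (adjusted p = 0.0108) and by a further 1.98 in tumor (adjusted p = 0.000104). Il1r2, the decoy receptor, was higher than in bone marrow in both blood (1.5) and tumor (1.38), and tumor against blood gave -0.13 (adjusted p = 0.557). Il18 was below the filter, with 12 to 60 reads per library, and Hmgb1 did not pass the test in any comparison. Il1b and Il1rn were thus higher in tumor than in blood together with Nlrp3, in the same libraries in which Casp1, Casp4 and Gsdmd were lower.

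**Figure D5:**
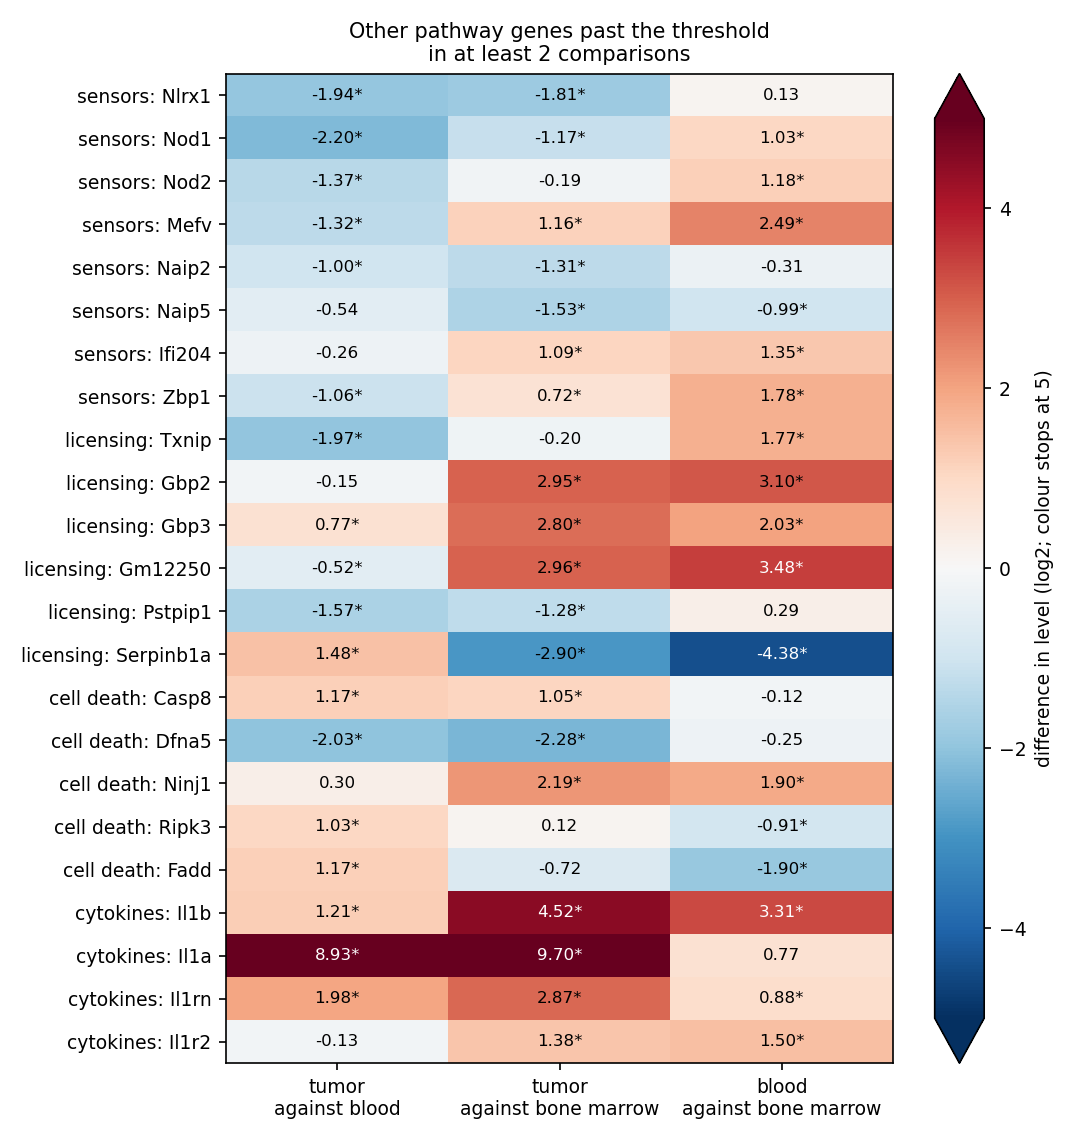
Log2 difference in level between compartments (colour and printed number) for the 23 other pathway genes that passed the threshold in at least 2 comparisons, with an asterisk where the adjusted p was under 0.05. Casp8, Fadd, Il1a, Naip5 and Nod2 entered the filter only through their highest compartment, so their asterisks are a description and no test. Il1b, Il1a and Il1rn are positive in both tumor columns, and 7 of the 8 sensors shown are negative in tumor against blood by more than 0.5.

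Across the 9 libraries, the 2 tested genes most like each of the 6 tested genes were found by the root mean square difference of their centred log2 levels. For Nlrp3 they were 9830144P21Rik (0.171) and Slc20a1 (0.204), which overlap each other on opposite strands of chromosome 2, so their reads cannot be told apart without strand. For Nlrp12 they were Tsc22d3 (0.149) and Selplg (0.18), the gene of P-selectin glycoprotein ligand 1. Casp1 was closest to Pilrb1 (0.064) and Oas3 (0.125), and Casp4 to 5430427O19Rik (0.145) and Trim30a (0.165). Gsdmd was closest to Stard3 (0.079) and Fbxo38 (0.104), and Pycard to Atp5h (0.195) and Clec5a (0.228). These distances compare with ranges of 1.10 (Gsdmd) to 4.24 (Nlrp3) on the log2 scale over the 9 libraries, and describe likeness only.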

How the data were processed

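Neutrophil RNA from 9 libraries was sequenced, 3 each of bone marrow, blood and tumor, from cDNA made with the SMARTSeq v2 protocol, which does not mark strand. The authors mapped paired-end reads with STAR to GRCm38 and counted genes of GENCODE M7 with featureCounts. The submitters' processing notes list STAR 2.5.2b, featureCounts 1.5.0 and edgeR 3.8.6. The values deposited are log2 FPKM, calculated by the authors on scaled library sizes. The gene length behind them equalled the genomic span for 84.9% of 46005 genes found in GENCODE M21, the source of the positions given here. Whole reads were recovered from the steps between values for 46517 of 46517 genes (tolerance 0.01 reads). PCR duplicates were not removed here, so the read counts may hold copies of the same molecule. They do not measure the spread between libraries.

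The 8 genes and the pathway and marker lists were chosen with earlier results of these data known. The test was limma 3.58.1 (R 4.3.3), fitted by lmFit and moderated by eBayes with its trend option, on genes whose log2 FPKM exceeded 0 in at least 3 of the 9 libraries, with compartment as the only term and Benjamini-Hochberg adjustment over all genes tested (threshold 0.05). The scripts were tested on simulated data with known answers. Replicates are the libraries numbered 1 to 3 in the labels, and p-values measure the spread between them. The other pathway genes given with values are those past the threshold in at least 2 of 3 comparisons, plus any needed for a count of 5 or fewer, and 1 gene of the lists is not reported here. Differences within a library were compared with exact permutation tests in Python 3.11.15. Alternatives covered filters, pseudocounts of 1 and 0.1, library scaling, limma-voom on the recovered reads, fits of 2 compartments, a replicate block and each library left out in turn. Protein sequences were not used here. All columns of the table belonged to these 9 libraries.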

Additional observations from a re-analysis of the deposited data

How the results depend on the processing

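The calls of single genes were recomputed under up to 21 alternatives. Of the 24 differences of the 8 genes, 15 kept their direction and their side of the threshold under every alternative that gave a value, among them all 3 of Nlrp3 and of Nlrp12, and Casp1, Casp4 and Gsdmd in tumor against blood. Of 492 recomputed values, 450 kept both, 33 were no longer past the threshold, 2 passed it newly and 7 changed sign, and the cause of these changes was not tested. The changes of sign were Pycard in tumor against blood (0.388 with plain totals, 0.213 after quantile normalization, 0.03482 without blood replicate 2 and 0.287 without tumor replicate 3), Casp4 in tumor against bone marrow (-0.0501 without tumor replicate 1) and Nlrc4 in blood against bone marrow (0.438 without bone marrow replicate 3 and 0.271 without blood replicate 1). With 1 library left out, these values ranged from -0.259 to 0.287 for Pycard, from -0.0501 to 0.406 for Casp4 and from -1.24 to 0.438 for Nlrc4. For other pathway genes, only differences past the threshold in the main fit were recomputed, which makes a change of sign unlikely. The 24 differences of the 8 genes include ones that were not called, so the results cannot be set against each other. Among the 54 differences of other pathway genes, 47 held throughout and 0 changed sign. These include Casp8, Fadd, Il1a, Naip5 and Nod2, which entered the filter only through their highest compartment. Of 96 recomputed differences within libraries, 1 changed sign, Nlrp3 minus Nlrp12 in blood against bone marrow with 1 added to the FPKM values (-0.078).

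Of the 8 genes, the number called ranged from 5 to 6 in tumor against blood, 4 to 6 in tumor against bone marrow and 4 to 6 in blood against bone marrow. The 6 in tumor against blood came with no filter and with the reads filter, where Aim2 entered and was called, and Pycard was not called there under any alternative. The number of all genes called, 4880, 4311 and 3446 in these comparisons, changed with the genes entered. With the stricter filter it was 2562, 2378 and 1924, with the reads filter 9314 and 7734 for the tumor comparisons, and with no filter 7532 in tumor against blood. Plain totals moved the share of higher calls from 45% to 60.6% in tumor against blood (2923 higher and 1898 lower in place of 2194 and 2686) and from 40.5% to 61.4% in tumor against bone marrow (2601 and 1634 in place of 1745 and 2566).

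Libraries with the same replicate number did not deviate together (9 correlations from -0.071 to 0.108, 1 of them over 0.1). With 3 libraries per compartment, such values cannot show that the libraries were unpaired. The paper describes the compartments as coming from the same mouse, and the labels do not say whether a number marks the same pool. The main test took them to share only a number, and the replicate block is given beside it. With the replicate block, 4851, 4241 and 3383 genes were called, with 5, 5 and 6 of the 6 genes. Aim2 is not among these 6, and its call in tumor against blood with the reads filter was lost with the block. Low counts limit Nlrc4 (4 to 71 reads per library), Aim2 in bone marrow and Pycard in blood most.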

Other observations

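Several pathway genes below the filter on low values were chosen for mention after their values were seen, and were tested with the filter of at least 5 reads in any library, under which the shares of all genes called are those given for Aim2. Casp12, the next gene to Casp4 on chromosome 9, had 1, 0 and 1 reads in bone marrow, 4, 7 and 1 in blood, and 146, 77 and 109 in tumor (adjusted p = 0.0034 in tumor against blood, limma). Mlkl, which encodes the executioner of necroptosis, had 83, 53 and 90 reads in bone marrow, 5, 8 and 0 in blood, and 136, 121 and 234 in tumor (adjusted p = 0.00532 in tumor against blood and 0.022 in blood against bone marrow). Nlrp6, an NLR gene best known from the gut epithelium, had 0 reads in every bone marrow library, 17 to 41 in blood and 26 to 73 in tumor. Nlrp1a had 28 to 77 reads in tumor and 160 to 285 in blood, a log2 difference of -2.79 (adjusted p = 0.000271). Brcc3, whose product removes ubiquitin from NLRP3, had 16 to 20 reads in blood, 114 to 188 in tumor and 103 to 145 in bone marrow. The epithelial markers were highest in the same tumor libraries, and their part in these values was not tested.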
